A study of Anolis chlorocyanus and Anolis cybotes and Anolis osa with 24 samples.

Results

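The 66 genes described here differed between leg and jaw muscle in the lizard Anolis cybotes and showed no difference of that size in 3 other anoles, A. chlorocyanus, A. osa and A. sagrei. They were selected on measured values from 25920 identifiers, of which 6298 averaged at least 10 CPM over all 24 libraries. CPM is a gene's count divided by the total count of its library and multiplied by 1000000. For each pair of libraries that carry the same number in their titles, the leg minus jaw difference was taken on the log2(CPM + 1) scale. A gene was included when its mean difference in A. cybotes was at least 1 in size, which is 2-fold, with the same sign in all 3 numbers, and when its mean difference was under 0.5 in size in each of the other species. Of the 66 genes, 63 were higher in leg and 3 were lower in leg. These values chose the genes, so the muscle differences below are descriptions and carry no test unless one is named.

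The study measured RNA in muscles of male anoles, with 12 leg and 12 jaw muscle libraries made from total RNA of whole muscle. There were 8 groups of 3 libraries. They were leg and jaw muscle of A. cybotes (numbers 01, 03 and 08), A. chlorocyanus (04, 06 and 08), A. osa (04, 05 and 07) and A. sagrei (15, 16 and 17). All animals were labelled male, and the labels used here give no treatment and no age.

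Jaw and limb muscles are both skeletal muscle, but jaw-closing muscles arise from head mesoderm and limb muscles from somites, the segmented mesoderm of the trunk. Skeletal muscles differ in their mixture of fibre types, which contract at different speeds and burn different fuels, and whole muscle also holds tendon, blood vessels, nerve and blood. Lizard jaw muscles deliver bites and leg muscles drive running and jumping. A. cybotes is a ground- and trunk-dwelling anole of Hispaniola. The count table lists genes by identifier with no gene symbols, so roles, cell type markers and pathway lists were not analysed here and the labelled tissues were not checked against markers. The few identifiers named are the 2 members furthest in each direction by mean difference in A. cybotes.

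Library totals ran from 1315319 to 1962685 counts, so 3 counts of a gene correspond to 1.53 to 2.28 CPM. All 3 A. cybotes jaw libraries were low on a measure of composition, as were 3 libraries of other species. Their TMM factors, which compare the bulk of genes between libraries, were 0.806 to 0.880, against 0.901 to 1.21 in A. cybotes leg and 0.825 to 1.32 over the 18 libraries of the other species. A. chlorocyanus 04 leg and jaw and A. sagrei 15 jaw, at 0.825, 0.845 and 0.843, lay within the range of A. cybotes jaw. The 10 most abundant genes took 24.6% to 31.9% of the counts in A. cybotes leg and 31.7% to 35.5% in A. cybotes jaw. Some libraries of other species lay within the range of A. cybotes jaw here too. They were A. chlorocyanus 04 jaw and leg at 34.5% and 32.1%, and A. sagrei 15 and 16 jaw at 33.4% and 33.2%. Over the 6298 genes, the median leg minus jaw difference was 0.19 in A. cybotes, against 0.02 in A. chlorocyanus, 0.05 in A. osa and 0.14 in A. sagrei. With TMM scaling these medians were −0.08 in A. cybotes, 0.00 in A. chlorocyanus, −0.04 in A. osa and −0.01 in A. sagrei.

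Counts of genes strongly biased to the other muscle were also summed in each library, and none of those genes is among the 66 members. A set of 6 genes that were at least 5 lower in leg on the log2 scale in each of the other species was summed first. It took 0.330%, 0.505% and 2.32% of the counts in the A. cybotes leg libraries 01, 03 and 08. In the leg libraries of other species it took at most 0.558%, in A. osa 07, so only leg 08 lay above all of them. The next highest of those libraries was A. chlorocyanus 04 at 0.0526%, below all 3 A. cybotes leg libraries. A set of 11 genes that were as much higher in leg took 0.407%, 0.148% and 0.286% of the counts in A. cybotes jaw 01, 03 and 08, against at most 0.0768% in other jaw libraries. Both sets were chosen for a wide gap in the 3 other species with no condition on A. cybotes, which by itself keeps the shares in the wrong muscle low in those species, so the excess in A. cybotes is a description only. The part of composition and of these cross-muscle counts in the results below was not tested. In whole muscle, fewer cells of a type and less RNA per cell cannot be told apart. The labels do not state that the libraries came from separate animals, and every p-value below reflects only how these libraries spread.

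Among the 6298 genes, 728 passed both conditions set on A. cybotes, with 627 higher and 101 lower in leg. In 308 of them no other species had a mean difference under 0.5 in size, in 189 1 species did, in 165 2 did, and in 66 all 3 did. The members were therefore a minority of the genes with a muscle difference in A. cybotes. With another species in the place of A. cybotes, the same rule found 38 genes in A. chlorocyanus (14 higher in leg and 24 lower). It found 33 in A. osa (17 higher and 16 lower) and 27 in A. sagrei (25 higher and 2 lower). All 4 counts rest on the same libraries. With TMM scaling the other species gave 15 higher and 20 lower in A. chlorocyanus, 13 and 10 in A. osa, and 17 and 6 in A. sagrei.

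The balance of leg-higher and leg-lower genes in the A. cybotes list, and which genes it held, depended on the scaling. With TMM-scaled CPM the rule gave 63 genes, 43 higher and 20 lower in leg, in place of 63 higher and 3 lower, and 27 of the 66 members were among them. When each number's differences were centred on their median over all genes, 55 genes met the rule, 46 higher and 9 lower in leg, and 34 were shared with the 66. The 63 leg-higher members themselves kept a positive mean difference under both scalings. The minimum of 1 set by the rule largely fixed that sign in advance, since the median over all genes moved by far less. Their median was 1.29 by library totals, 1.03 with TMM and 1.1 when centred, and their lowest values were 0.73 with TMM and 0.81 when centred. With TMM, 32 of the 63 still reached 1, and 37 did when centred. Leaving out a pair of A. cybotes libraries also moved the list. Without number 01 the rule found 195 genes, 64 of them among the 66, and without 03 and 08 it found 94 and 99 genes, with 48 and 50 shared. The plot of genes by setting shows these counts side by side.

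**Figure D1:**
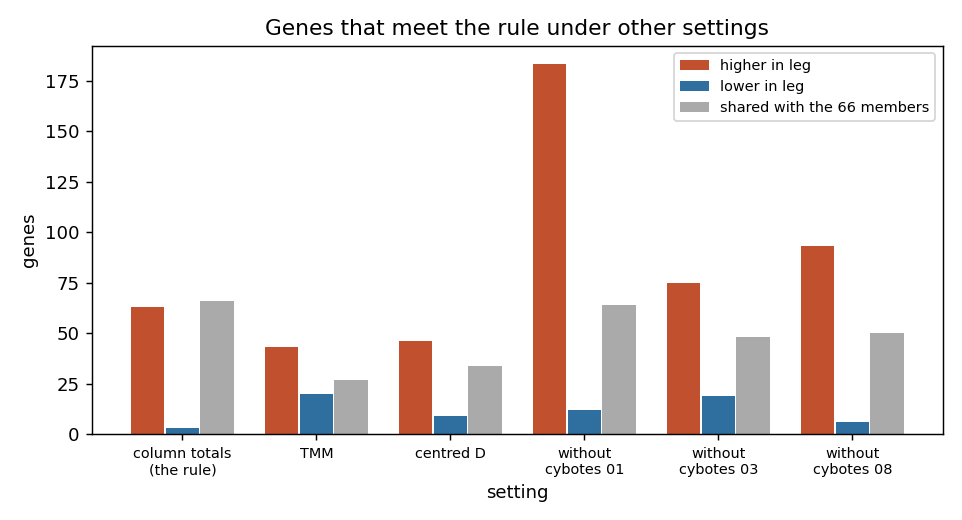
Number of genes (vertical axis) that met the rule under 6 settings (horizontal axis), with genes higher in leg, genes lower in leg and genes shared with the 66 members as separate bars. The count lower in leg is 3 by library totals and 20 with TMM scaling, and the list grows to 195 genes without A. cybotes number 01.

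Many members lay near the limits of the rule. The smallest mean difference in A. cybotes inside it was 1.0025 and the nearest outside was 0.9997. Within 0.1 of that limit lay 15 members inside it, against 43 genes outside it that met the other conditions. For the other species, the largest mean difference inside was 0.496 in size and the nearest outside was 0.503, with 26 members inside and 48 genes outside within 0.1 of the limit. The lowest mean level inside was 10.003 CPM and the nearest outside was 9.94 CPM.

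Among the 63 leg-higher members, the mean leg minus jaw difference in A. cybotes ranged from 1.0025 to 2.13 on the log2 scale. The numbers did not contribute alike. The median difference was 0.82 in number 01, 1.38 in 03 and 1.51 in 08, and number 01 gave the smallest of the 3 differences for 44 members. Number 03 gave the largest for 29 members and 08 for 26. Shares of all genes for these counts are not given here, and the part of library-wide shifts between numbers was not tested. The median SD of the difference over the 3 A. cybotes numbers was 0.57 for these members, against 0.42 for all 6298 genes.

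In the other species the same 63 members centred near 0. Their median mean difference was 0.06 in A. chlorocyanus, 0.13 in A. osa and 0.18 in A. sagrei. In the same order 37, 44 and 45 of them (58.7%, 69.8% and 71.4%) lay above 0. Of all genes 52.2%, 55.4% and 65.0% did so. The medians of the members lie close to those of all genes in each species. A mean near 0 did not always hold for single numbers. In 28 of the 63, at least 1 of the 9 numbers of the other species had a difference of 1 or more in size, and 43.9% of all genes had one. All 3 A. cybotes differences lay above all 9 others in 23 of the 63 leg-higher members, beside 2.92% of all genes, and below all 9 in 2 of the 3 leg-lower members, beside 0.810%. In 7 members the sign was opposite to A. cybotes in all 3 numbers of A. chlorocyanus (4.75% of all genes), in 8 in all of A. osa (4.99%) and in 2 in all of A. sagrei (2.89%). The rule used these differences, and nothing is read from those counts.

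**Figure D2:**
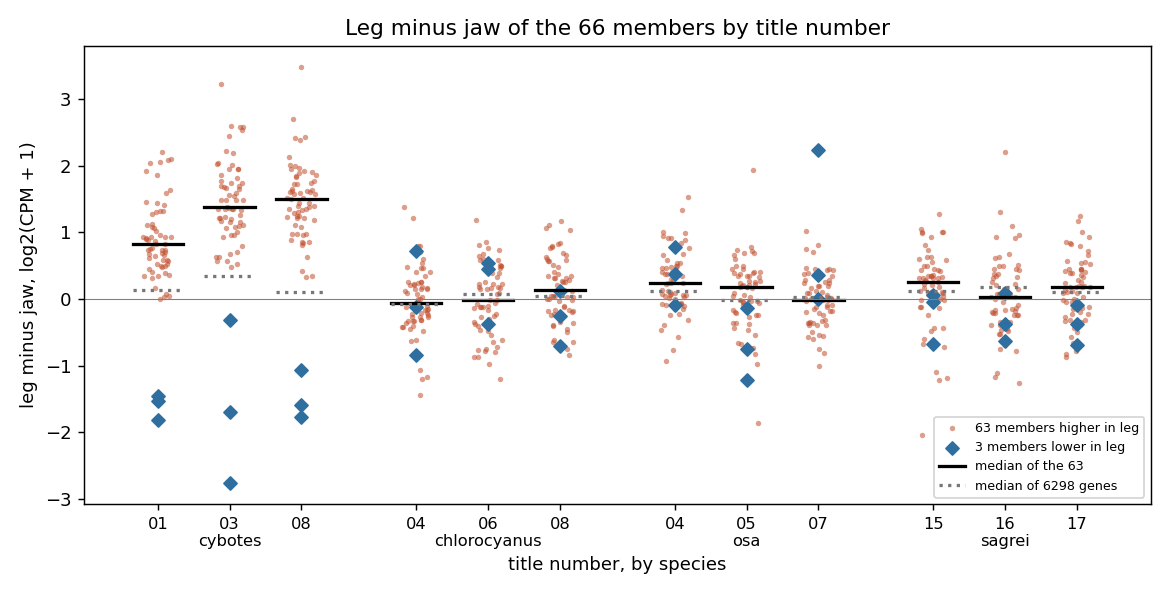
Leg minus jaw difference on the log2(CPM + 1) scale (vertical axis) in each title number of each species (horizontal axis), with 1 point for each of the 63 members higher in leg and a diamond for each of the 3 lower in leg. Black lines are medians of the 63 and dotted lines medians of all 6298 genes. The black lines stand at 0.82, 1.38 and 1.51 in A. cybotes 01, 03 and 08 and close to 0 elsewhere.

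The leg-higher members were mostly genes of low abundance. Their mean level over all libraries ranged from 10.003 to 257.7 CPM with a median of 19.7 CPM, against a median of 34.0 CPM over all 6298 genes. In 32 members (50.8%) the mean was between 10 and 20 CPM, where 29.7% of all genes lay. The median count of a member in a library was 32 in A. cybotes leg and 11 in A. cybotes jaw. Of the 189 values in each muscle, 11 in leg and 80 in jaw were under 10 counts, and the lowest jaw value was 1 count. The differences of such genes rest on few reads in jaw, and the part of counting error in membership was not tested. In 45 of the 63 all 3 A. cybotes leg libraries lay above all 3 jaw libraries, as in 15.2% of all genes. In 2 of the 3 leg-lower members all 3 leg libraries lay below all 3 jaw libraries, as in 4.43% of all genes.

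The rule used the leg and jaw values of all species, and it forces the jaw deviation of a leg-higher member from the other species to lie more than 0.5 below its leg deviation. The values below are therefore descriptions, and the shares of all genes beside them come from genes not selected in this way. For each gene the A. cybotes mean was compared with the mean of the other 3 species, in leg and in jaw separately. In leg the leg-higher members lay on both sides of the other species, with a median of 0.10 on the log2 scale and a range of −1.67 to 2.84. In jaw most lay below them, with a median of −1.03 and a range of −2.86 to 1.22. Over all 6298 genes these medians were −0.06 in leg and −0.21 in jaw. With TMM scaling, the members stood at 0.14 in leg and −0.81 in jaw, and all genes at −0.01 in leg and 0.01 in jaw.

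In leg, 35 of the 63 members lay above and 28 below the mean of the other species, where 53.8% of all genes lay below. The leg mean was at least 2-fold higher in 7 members (6.40% of all genes) and at least 2-fold lower in 5 (8.26%). A. cybotes had the highest leg mean of the 4 species for 21 members (22.0%) and the lowest for 14 (28.9%). All 3 A. cybotes leg libraries lay above all 9 other leg libraries in 1 member (2.59%) and below them in 3 (3.51%). In jaw, 58 of the 63 members lay below the mean of the other species, beside 63.0% of all genes. The jaw mean was at least 2-fold lower in 33 members (14.8%) and at least 2-fold higher in 1 (5.95%). A. cybotes had the lowest jaw mean of the 4 species for 50 members (37.6%) and the highest for 0 (16.7%). All 3 A. cybotes jaw libraries lay below all 9 other jaw libraries in 23 members (7.84%) and above them in 0 (2.84%).

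Put together by gene, 30 members were above the other species in leg and below them in jaw, 28 were below them in both muscles and 5 were above them in both. The rule allows no leg-higher member above them in jaw and below them in leg. Of all genes, 53.8% lay below the other species in leg and 63.0% in jaw. Shares of all genes for the split itself are not given here, and nothing is read from it. The deviation was larger in jaw than in leg for 48 of the 63 members, beside 58.1% of all genes. By number, the median deviation of the members in leg was −0.41 in 01, 0.42 in 03 and 0.38 in 08. In jaw it was −1.27, −1.13 and −1.05 in the same order. Over all genes these medians were −0.19, 0.17 and −0.14 in leg and −0.29, −0.13 and −0.21 in jaw. The jaw deviation of the members was thus of like size in all 3 numbers. Their leg 01 lay on the other side of 0 from leg 03 and 08, and over all genes leg 01 and 03 also lay on opposite sides. The part of such library-wide shifts was not tested. Without number 08 the median leg deviation of the members over the other numbers was −0.05, and without 01 it was 0.32.

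**Figure D3:**
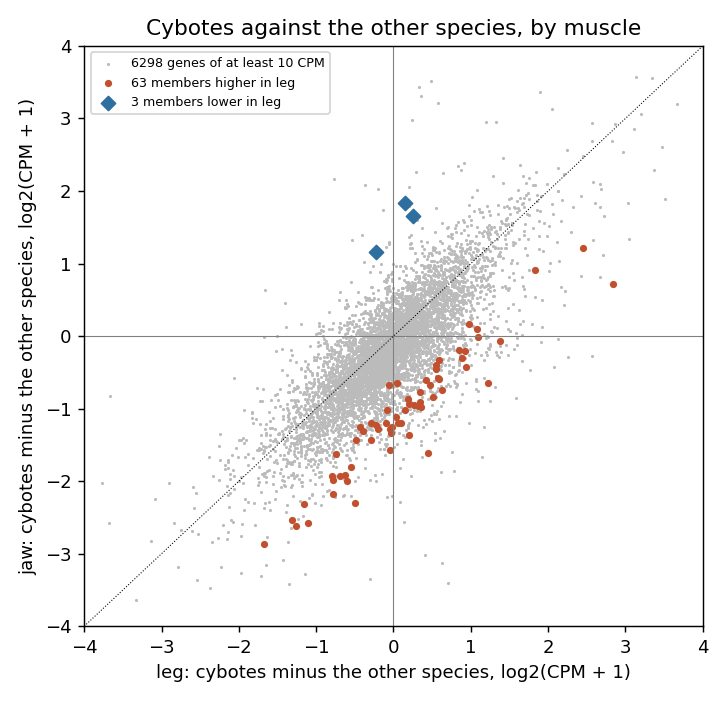
Deviation of A. cybotes from the mean of the other 3 species in leg (horizontal axis) and in jaw (vertical axis), both on the log2(CPM + 1) scale, for the 63 members higher in leg, the 3 lower in leg (diamonds) and all 6298 genes (grey). The dotted line marks equal deviations, and 15 genes lie outside the axes, which end at 4. The members higher in leg lie under the dotted line, 58 of them below 0 in jaw.

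The summed level of the 63 members is a description in CPM, made from the same leg and jaw values that chose them. It was 1965, 3414 and 2560 CPM in A. cybotes leg 01, 03 and 08, against 949, 1106 and 947 CPM in A. cybotes jaw. The 3 leg sums were all above the 3 jaw sums, and leg averaged 2646 ± 729 CPM and jaw 1001 ± 91.7 CPM (SD, n = 3 each). In A. chlorocyanus leg averaged 2013 ± 292 CPM and jaw 2057 ± 109 CPM. In A. osa the averages were 2687 ± 21.3 CPM in leg and 2454 ± 108 CPM in jaw. In A. sagrei they were 2401 ± 728 CPM in leg and 2435 ± 1217 CPM in jaw, and number 17 was the highest of its species in both muscles, with 3229 CPM in leg and 3840 CPM in jaw. The 3 A. cybotes jaw sums were the lowest of all 24 libraries, and the A. cybotes leg sums lay within the range of the other leg libraries except for number 03.

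**Figure D4:**
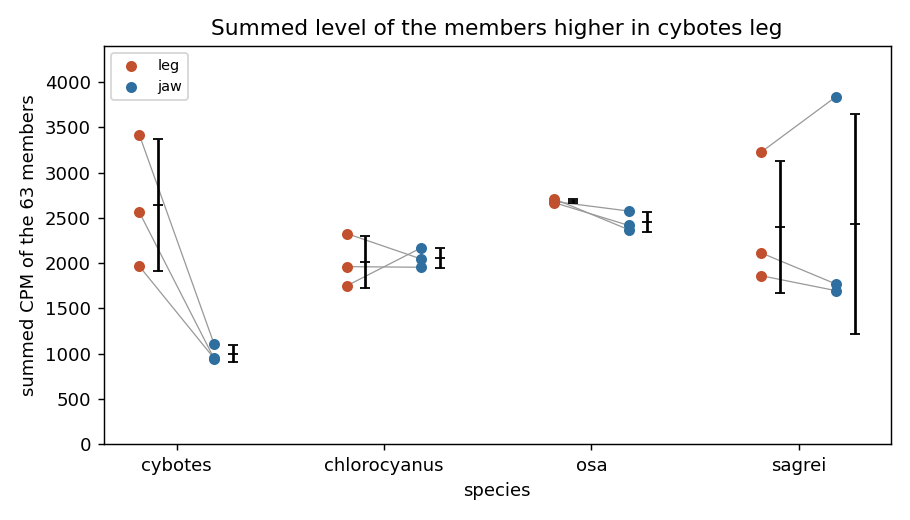
Summed CPM of the 63 members higher in leg (vertical axis) in each library, by species (horizontal axis), with leg left of jaw and lines joining libraries of 1 title number. Black marks are means with SD (n = 3). The A. cybotes jaw libraries lie between 947 and 1106 CPM, below every other library.

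The member with the largest difference in A. cybotes was ENSACAG00000009592. Its level was 22.9, 35.9 and 34.7 CPM in A. cybotes leg 01, 03 and 08, against 11.7, 8.16 and 2.19 CPM in jaw, where it had 17, 11 and 3 counts. All leg values were above all jaw values, and jaw 08 was the lowest. Its leg minus jaw differences were 0.91, 2.01 and 3.48, with a mean of 2.13 ± 1.29 (SD, n = 3). The mean differences were 0.01 in A. chlorocyanus, 0.29 in A. osa and −0.04 in A. sagrei, although single pairs differed in both directions. They were 0.998, 0.69 and −0.81 in A. osa 04, 05 and 07, and −1.11 in A. sagrei 16 and 0.81 in A. sagrei 15. The difference in A. osa 04 was above the 0.91 of A. cybotes 01. It averaged 20.9 ± 11.1 CPM in leg and 20.5 ± 9.46 CPM in jaw of A. chlorocyanus, and 15.5 ± 6.51 CPM in leg and 12.0 ± 3.65 CPM in jaw of A. osa. In A. sagrei it averaged 44.1 ± 21.9 CPM in leg and 58.7 ± 49.8 CPM in jaw. The A. cybotes jaw mean was thus the lowest of the 8 groups, while its leg mean lay within the range of the other species.

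ENSACAG00000005952 had 8.74, 26.2 and 14.95 CPM in A. cybotes leg, against 1.38, 3.71 and 5.84 CPM in jaw, from 13, 46 and 22 counts in leg and 2, 5 and 8 in jaw. The muscles did not overlap, and the differences were 2.03, 2.53 and 1.22 with a mean of 1.93 ± 0.66. This gene varied widely between species. In A. chlorocyanus it averaged 1.06 CPM in leg and 0.97 CPM in jaw, below the 1.53 to 2.28 CPM that 3 counts represent. In A. osa it was far higher in both muscles, with 22.9 ± 2.19 CPM in leg and 21.3 ± 5.59 CPM in jaw. In A. sagrei its differences were −2.04, 0.49 and 1.17, so the mean near 0 there came from numbers of opposite sign.

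Of the 3 leg-lower members, ENSACAG00000028925 was the most abundant. It had 217, 98.0 and 145 CPM in A. cybotes leg, against 628, 672 and 305 CPM in jaw, with no overlap. The differences were −1.53, −2.76 and −1.06, with a mean of −1.79 ± 0.88. The A. cybotes jaw level stood above the rest of the series on average. In A. chlorocyanus leg averaged 268 ± 152 CPM and jaw 312 ± 152 CPM, in A. osa 76.5 ± 49.6 CPM in leg and 74.1 ± 55.8 CPM in jaw, and in A. sagrei 175 ± 116 CPM in leg and 183 ± 115 CPM in jaw. Outside A. cybotes, libraries of 1 species differed several-fold for this gene, and the 3 numbers kept the same order in leg and in jaw within each species.

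ENSACAG00000001863 had 15.5, 6.84 and 8.83 CPM in A. cybotes leg, against 44.2, 24.5 and 28.5 CPM in jaw, again with no overlap. Its differences were the most even of the 4 named genes at −1.46, −1.70 and −1.58, with a mean of −1.58 ± 0.12. The other species showed lower jaw levels on average. They averaged 14.9 ± 4.79 CPM in leg and 15.5 ± 2.39 CPM in jaw of A. chlorocyanus, 3.87 ± 3.83 CPM and 3.82 ± 2.82 CPM in leg and jaw of A. osa, and 11.6 ± 4.98 CPM and 16.6 ± 9.51 CPM in leg and jaw of A. sagrei. A. sagrei 16 jaw, at 27.4 CPM, was above A. cybotes jaw 03. The single differences were 0.78, −1.22 and 0.36 in A. osa, from 1 to 13 counts per library. They were −0.85, 0.45 and 0.12 in A. chlorocyanus and 0.07, −0.64 and −0.68 in A. sagrei, where the mean was −0.42. The third leg-lower member had 14.8, 3.99 and 10.9 CPM in A. cybotes leg, against 54.5, 5.19 and 39.4 CPM in jaw. Its muscles overlapped and number 03 differed by −0.31 only, with −1.81 in 01 and −1.77 in 08. In A. osa 07 its difference was 2.24, the opposite sign. In leg the 3 leg-lower members deviated from the other species by −0.23, 0.26 and 0.15 on the log2 scale. In jaw the same 3 members stood 1.16, 1.66 and 1.84 above them in that order, and each had its highest jaw mean of the 4 species in A. cybotes.

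**Figure D5:**
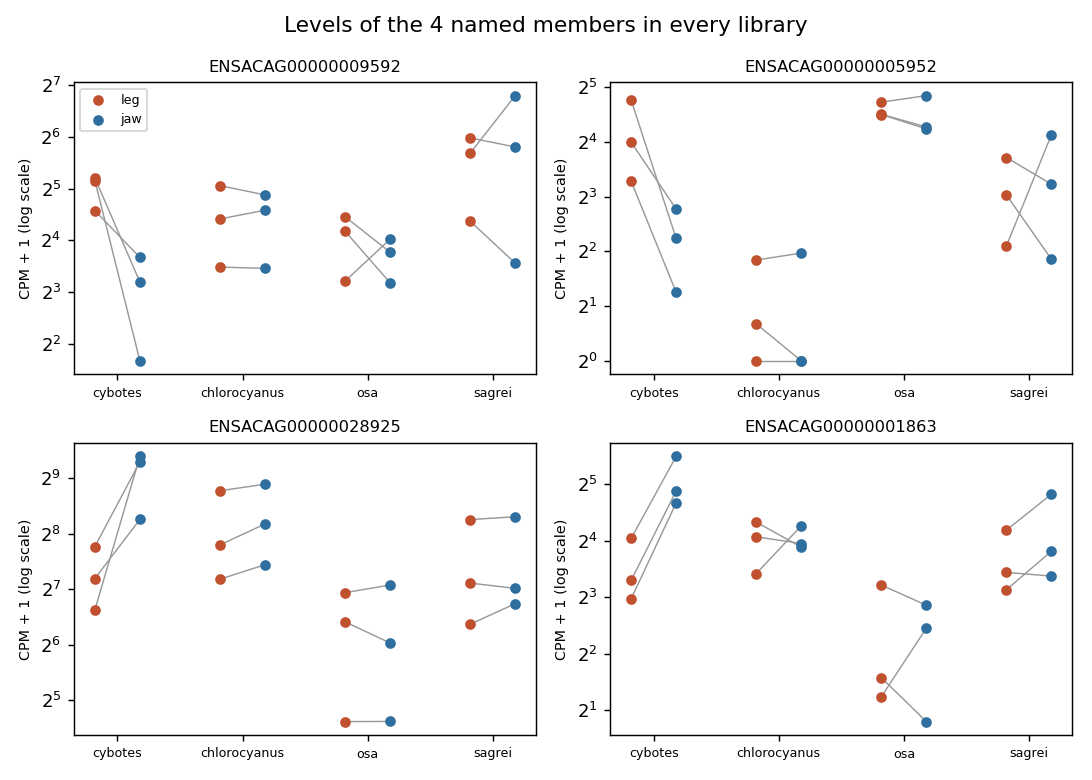
Level of the 4 named members in each library as CPM + 1 on a log2 axis (vertical), by species (horizontal), with leg left of jaw and lines joining libraries of 1 title number. The lines of A. cybotes fall from leg to jaw for ENSACAG00000009592 and ENSACAG00000005952 and climb for ENSACAG00000028925 and ENSACAG00000001863, while lines of the other species run both ways.

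Several members without a name in the text show the range of patterns. The most abundant leg-higher member, at 257.7 CPM over all libraries, had 132, 409 and 115 CPM in A. cybotes leg, against 52.4, 67.5 and 39.4 CPM in jaw. The group means of the other species ran from 243 to 422 CPM, so the A. cybotes jaw was well below them and leg 03 alone was within that range. The member with the largest leg deviation, 2.84, was the opposite case. It had 59.1, 266 and 133 CPM in A. cybotes leg, against 55.9, 27.5 and 24.1 CPM in jaw, and its difference in number 01 was 0.08. Its leg and jaw means were 7.34 and 9.32 CPM in A. chlorocyanus and 12.0 and 14.5 CPM in A. osa. A single pair gave the A. sagrei mean, since number 17 had 297 CPM in leg and 358 CPM in jaw and numbers 15 and 16 had 16.6 to 33.4 CPM. The member with the lowest jaw deviation, −2.86, had 10.1, 14.8 and 14.3 CPM in A. cybotes leg, against 2.07, 9.65 and 4.38 CPM in jaw. In the other species its leg values were 23.6 to 88.1 CPM and its jaw values 21.6 to 75.7 CPM, with no overlap with A. cybotes in either muscle. A single member had a positive difference in all 12 numbers, with 1.63, 1.73 and 0.34 in A. cybotes and 0.06 to 0.65 elsewhere.

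The level over both muscles in A. cybotes against the other species was not itself a condition of the rule. It is not fully independent of the rule, which set a minimum on the mean level over all libraries and used the leg and jaw values that enter it. Leg and jaw counts of each title number were summed, and A. cybotes was compared with the mean of the other 3 species over the 12 sums by the quasi-likelihood test of edgeR, adjusted over 9908 genes by the Benjamini-Hochberg method. In all, 993 genes were higher in A. cybotes (10%) and 790 were lower (7.97%) at an adjusted p of 0.05. Of the 63 leg-higher members, 3 were higher and 7 lower, which is 4.76% and 11.1%. Of the 3 leg-lower members 1 was higher and 0 were lower. For the 63, the share higher was below that of all genes and the share lower was above it. The genes tested, here and by limma below, include many under the rule's minimum of 10 CPM, so members and background are unlike in level. Both shares of the 63 rest on few calls, their distance from the background was not tested, and most members did not pass the test. A sum weights the muscle with the higher level, so the mean of the log2 values of both muscles was also tested, with limma. By limma 3 of the 63 were higher, beside 9.54% of 9123 genes, and 13 were lower (20.6%), beside 10.2%. The 3 higher and the 7 lower calls of edgeR were all among those of limma. Single numbers moved these edgeR counts. Without A. cybotes 01 4 of the 63 were lower, and 1 was higher without A. cybotes 03, 5 without A. osa 05 and 6 without A. sagrei 17. The counts over all genes moved too, with 433 of 10443 lower without A. cybotes 01. Those higher were 584 of 10379 without A. cybotes 03, 1028 of 10389 without A. osa 05 and 1109 of 10354 without A. sagrei 17. The part of low jaw counts in these calls was not tested.

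The 7 members lower in A. cybotes had log2 fold changes of −0.68 to −2.10 in edgeR. The lowest was the member with 10.1 to 14.8 CPM in A. cybotes leg described above, at −2.10 with an SE of 0.30 and an adjusted p of 0.000490. The 3 leg-higher members that were also higher in level stood at 1.61, 2.01 and 2.16. Over the 63 members the median fold change was −0.20 in edgeR and −0.41 in limma, against −0.00 and −0.01 over all genes tested. By library totals the median deviation of the mean of both muscles was −0.55 for the members and −0.14 for all 6298 genes. Species differed widely in some members. The range of the 4 species means reached 2 or more on the log2 scale in 13 of the 63 and in 3 of the 3, beside 12.4% of all genes.

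Among the named genes, ENSACAG00000001863 was higher in A. cybotes over both muscles by 1.29 (SE 0.39, adjusted p = 0.0344 in edgeR). That call was lost in 7 of 17 alternatives, over which its adjusted p ran from 0.0108 to 0.223. ENSACAG00000028925 stood at 1.13 (SE 0.48, adjusted p = 0.119), and ENSACAG00000005952 at 0.96 (SE 0.52, adjusted p = 0.210). Without A. chlorocyanus 04 both passed in edgeR, ENSACAG00000028925 at 1.37 (adjusted p = 0.0463) and ENSACAG00000005952 at 1.83 (adjusted p = 0.0130). For ENSACAG00000005952 that run left A. chlorocyanus with 1 and 0 counts in leg and 0 and 0 in jaw. A. osa averaged 22.9 CPM in leg and 21.3 CPM in jaw for this gene, above A. cybotes at 16.6 and 3.64 CPM. Its value is thus against a mean of unlike species. Over the 17 alternatives the adjusted p ran from 0.0289 to 0.378 for ENSACAG00000028925, the lowest being without a low-count filter. For ENSACAG00000005952 it ran from 0.0130 to 0.601. ENSACAG00000009592 stood at −0.20 (SE 0.43, adjusted p = 0.777) and passed in 0 of 17 alternatives.

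For scale, the contrasts that share their values with the rule were fitted across all genes, and the members' counts in them are descriptions. Between leg and jaw of A. cybotes, edgeR called 208 genes higher in leg (2.28%) and 87 lower (0.954%), among them 5 of the 63 and 0 of the 3. The total of 295 genes was 173 without number 01, 77 without 03 and 83 without 08. With the title number as a block, which pairs leg and jaw, 753 genes were higher (8.25%) and 628 lower (6.88%), among them 34 of the 63 and 3 of the 3. The leg minus jaw difference of A. cybotes was also set against the mean of the other species. There edgeR called 0 genes higher (0%) and 1 lower (0.0110%), none of them a member. Of the 9123 genes tested, 500 had an unadjusted p under 0.05 in edgeR. With no effect in any gene, a share of about 0.05 would pass that limit. DESeq2 called 19 genes for the same difference. With the block 79 genes were higher (0.866%) and 95 lower (1.04%), among them 6 of the 63 and 3 of the 3.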

How the data were processed

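The deposited table holds raw counts per gene for 24 libraries, made by the authors from reads aligned with STAR, per the submitters' processing notes. Genome build, annotation and counting tool: not given in the sources used here. CPM was computed from column totals, and leg minus jaw differences on the log2(CPM + 1) scale by title number. The members and lists were chosen with earlier results of these data known. The named genes were the 2 members with the largest and the 2 with the most negative mean difference in A. cybotes, the rule for identifiers without symbols.

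Tests used edgeR 4.0.16 (TMM, filterByExpr, quasi-likelihood, Benjamini-Hochberg adjustment over all genes tested) in R 4.3.3, with limma 3.58.1 (prior count 2) and DESeq2 1.42.0 as alternatives. Muscle contrasts were fitted over 8 group means (16 residual degrees of freedom) and levels over 12 sums. The labels do not state that a number is 1 animal. Deviations from group means of leg and jaw correlated at 0.349 to 0.790 for the same number within a species, so numbers were taken to pair libraries. For different numbers they correlated at −0.721 to 0.121. Deviations from a mean of 3 libraries sum to 0, so positive values for the same number by themselves push the others below 0. The range for different numbers is therefore no separate support. Whether a number marks 1 animal or shared handling was not tested.

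Alternatives were scaling, pseudocount, low-count filter, thresholds, tool, the block and each replicate left out. Centring of differences, TMM scaling of the deviations from other species, their values without each A. cybotes number, and the settings for member counts were chosen after seeing the data. Total counts limit precision for low genes, and intervals cover spread between these samples.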

Additional observations from a re-analysis of the deposited data

Results flagged for a closer look

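With the title number as a block, 9 of the 66 members had a leg minus jaw difference in A. cybotes that differed from the mean of the other 3 species by edgeR's quasi-likelihood test, 6 of them higher in leg and 3 lower. Over all 9123 genes tested, the block called 79 higher (0.866%) and 95 lower (1.04%). Without the block no member differed, and 1 gene was called in all (0.0110%). The rule chose the members on this difference. Some members had differences of one sign in all 3 A. cybotes numbers and of the opposite sign in all 3 numbers of another species, a contrast that was not tested for single genes in this form. There were 7 such members for A. chlorocyanus (4.75% of all 6298 genes), 8 for A. osa (4.99%) and 2 for A. sagrei (2.89%). In all, 16 members were opposite in at least 1 species, a count for which no share of all genes was computed. All 16 were higher in A. cybotes leg, as were 63 of the 66 members. The rule used these differences, and nothing is read from the counts.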

How the results depend on the processing

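The paired analysis, with the title number as a replicate block, gave 1381 genes between leg and jaw of A. cybotes, against 295 without the block, and 174 against 1 for that difference set against the other species. Without a low-count filter these counts were 510 and 44. For the second, DESeq2 gave 19 and library totals alone 0. Leaving out 1 replicate or library gave 77 to 421 and 0 to 2. The level over both muscles gave 926 to 2049 genes when 1 number was left out, against 1783, and the 3 lowest counts came without A. cybotes 01, 03 or 08. The leg-higher members lower in level numbered 11 with DESeq2, 11 without a filter, 13 with limma and 4 to 10 with 1 number left out, against 7. Over all genes tested, those lower were 964 of 9908 with DESeq2, 889 of 17232 without a filter and 934 of 9123 with limma. They were 342 to 868 with 1 number left out, against 790 of 9908. Leg-higher members higher in level numbered 1 (without A. cybotes 03) to 6 (without A. sagrei 17), against 3. All genes higher were 584 of 10379 and 1109 of 10354 in those runs, against 993 of 9908. The rule gave 117 genes at 5 CPM or more, 32 at 20 CPM or more, 189 and 11 with a limit of 0.75 and 1.5 in A. cybotes, 9 and 180 with a limit of 0.25 and 0.75 elsewhere, and 56 to 195 with 1 number left out, against 66. With a pseudocount of 5 and 0.5 the rule gave 49 and 71 genes, with 26 and 61 of the 66 among them. Of the 66 genes, 32 met the rule in all 3 runs without 1 A. cybotes number and 5 in all 12 runs. The median deviation of the leg-higher members in leg was −0.05 to 0.32 with 1 A. cybotes number left out, against 0.10, and below 0 without number 08. In jaw it was −1.11 to −1.05 with 1 left out and −0.81 with TMM, against −1.03. The causes were not tested. The mean difference in A. cybotes of each named gene kept its sign in all alternatives. The rule largely fixed that in advance, since it required the same sign in all 3 numbers and a mean of at least 1 in size. The level over both muscles of each named gene also kept its sign, while the median leg deviation did not. Low jaw counts limit what can be said of single members.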
